A study of Saccharomyces cerevisiae with 12 samples.

Results

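Cell wall mannoproteins and PIR proteins are the structural glycoproteins of the outer wall layer of the budding yeast *Saccharomyces cerevisiae*. The 10 genes described here, PIR1, HSP150, PIR3, CIS3, CWP1, CWP2, SED1, CCW12, CCW14 and TIR1, were picked by name from a table of 6347 features, and all 10 had a row and passed the filter on low values. The table comes from a study of 2 strains built in D452-2, both carrying the plasmid pRS316 with cdt-1, a cellodextrin transporter gene of *Neurospora crassa* that the table describes as GFP-tagged. In the NC strain cdt-1 kept its endogenous codons, and in the OPT strain its codons were optimized. Both strains were sampled in mid-exponential growth. As each of them carried cdt-1, no control without the transgene enters any comparison here. The promoter of cdt-1 and the number of transformants behind each strain are not given in the sources used here. Of the 12 libraries of the series, 3 mRNA libraries of NC and 3 of OPT were used, while the 6 footprint libraries, made from ribosome-protected mRNA, were left aside and not analysed here.

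The yeast wall has an inner layer of glucan and chitin and an outer layer of heavily mannosylated proteins. Most of these proteins are made with a glycosylphosphatidylinositol (GPI) anchor, which is cut at the plasma membrane so that the protein can be joined to glucan. PIR proteins, named for their internal repeats, have no GPI anchor and are linked to glucan through those repeats after the Golgi protease Kex2 has removed a propeptide. All of them enter the endoplasmic reticulum (ER) and are O-mannosylated there, and genes of both kinds are known targets of the cell wall integrity pathway, which runs from wall sensors over Rho1 and Pkc1 to the kinase Slt2 and the transcription factor Rlm1.

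A value of 1 RPKM stood for an estimated 24.3 to 45.0 reads per kb of gene, depending on the library. The values of every library add up to nearly the same total, so this step need not give its number of reads. A member was worth an estimated 410 to 247953 reads per library, and no member other than TIR1 was worth fewer than 3810. Counting error therefore weighed most on TIR1. The row of endogenous cdt-1 stood at 506 to 567 RPKM in NC and was listed at 0 in OPT, and that of optimized cdt-1 at 420 to 557 in OPT and at 0 in NC. NC replicate 3 correlated less well with the other NC libraries (Pearson r of log2 values across features 0.986 and 0.989) than those did with each other (0.994). In the NC libraries, rows named for ribosomal RNA took 0.156, 0.228 and 0.412% of all RPKM, and in the OPT libraries 1.06, 1.30 and 0.174%.

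None of the 10 genes passed the test between the strains. With limma at an adjusted p under 0.05, 0 were higher and 0 lower in OPT, where 19.1% of the 5982 yeast features tested passed, 5.38% as higher and 13.8% as lower. At an unadjusted p under 0.05 there were 5 of 10, PIR3, CIS3, CCW12, CCW14 and TIR1, against 34.7% of all features. The libraries of the strains did not overlap in 4 of 10, namely CIS3, CCW12 and TIR1, which were lower in OPT, and CCW14, which was higher, where 40.7% of all features showed such a separation, 27.6% with OPT lower and 13.1% with OPT higher. For those 4 genes a two-sided exact permutation test gave p = 0.1, the lowest that 3 libraries a strain allow. Log2 differences, OPT minus NC, were below 0 for 6 genes and above 0 for 4, against 3690 and 2292 of the 5982 features tested. The members' median was -0.08 against -0.06 over all features tested. Regardless of sign, the members' median difference was 0.25 in size, against 0.16 over all features tested. In 9 of the 10 the 95% interval of the difference lay inside a 2-fold change in either direction, the exception being CWP1. Over all features tested this held for 5526 of 5982. In whole cultures, fewer cells at a given stage and less mRNA per cell cannot be told apart.

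**Figure D1:**
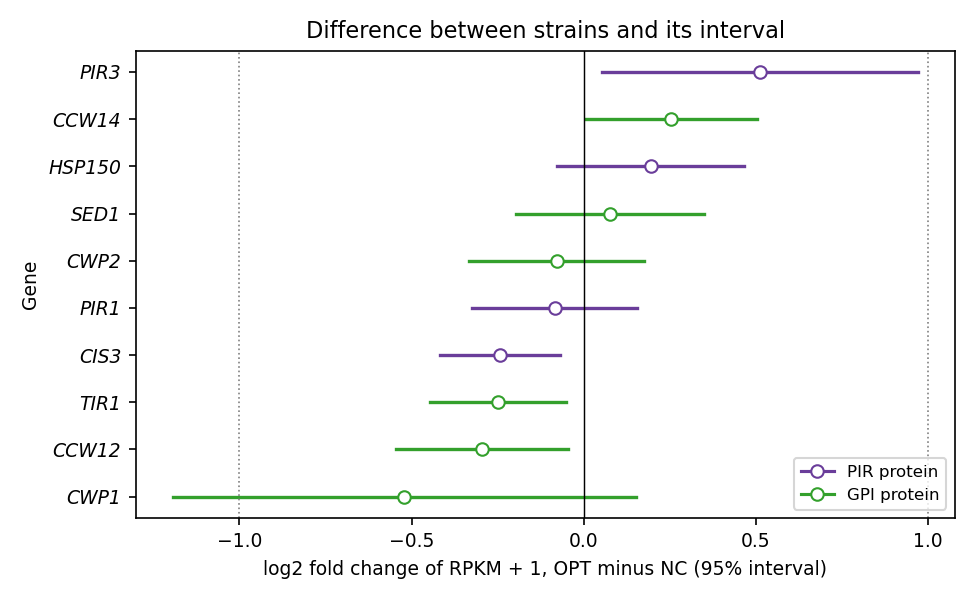
Log2 fold change of RPKM + 1, OPT minus NC, for the 10 genes (points) with the 95% interval of the limma fit (lines), coloured by kind of protein. The dotted lines mark a 2-fold change, and the interval of CWP1, from -1.19 to 0.15, is the one that crosses it.

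The levels of the 10 genes ranged from among the most abundant transcripts of the cell down to a low one, in an order that was the same by mean in both strains. CCW12, CWP2 and SED1 led, followed by HSP150, CCW14, CIS3, PIR1, PIR3, CWP1 and TIR1. RPKM is a level per length, which allows genes of unlike length to be set side by side. How reads were split among PIR genes, which share repeats, is uncertain, and this bears on their places in the order. Neighbours in this order held separate ranges in both strains except PIR3 and CWP1, which overlapped in NC, where PIR3 was the higher in 2 of 3 libraries. In OPT the mean of PIR3 was 2.20 times that of CWP1. Together the 10 transcripts took 3.34, 3.47 and 3.65% of all RPKM in NC and 3.17, 3.15 and 3.24% in OPT, and the strains did not overlap. Without CCW12 the other 9 took 1.78, 1.85 and 1.85% in NC and 1.80, 1.86 and 1.86% in OPT, and the strains overlapped.

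**Figure D2:**
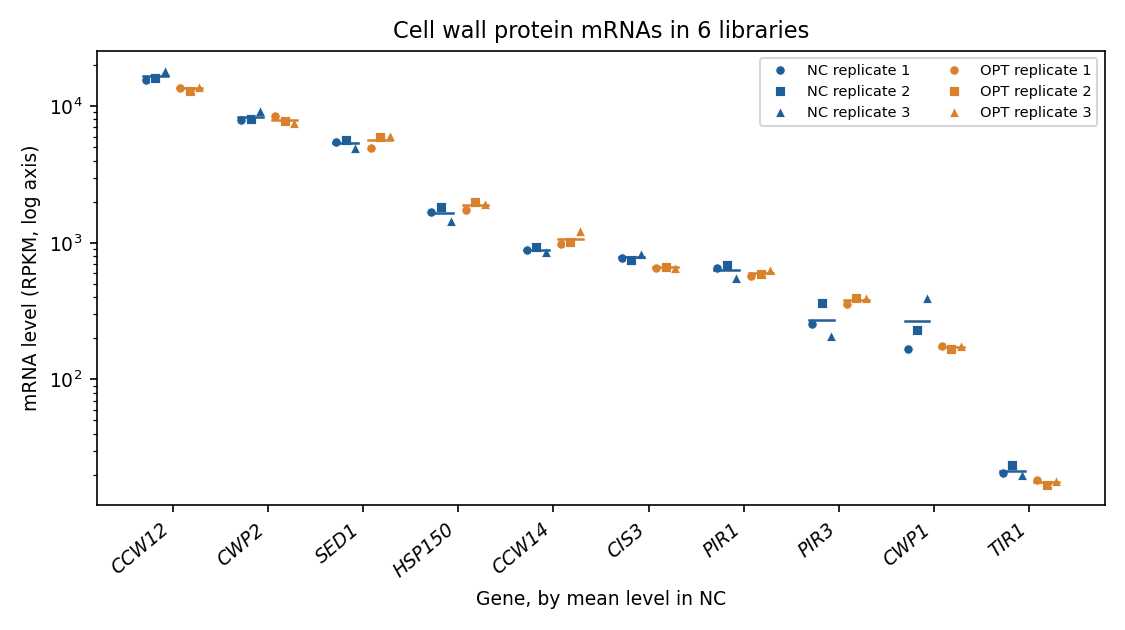
Level of each gene in RPKM (log axis) in the 3 NC and 3 OPT libraries, with symbols for replicates and short lines for the means of each strain. CCW12 is the highest, at 12895 to 17986 RPKM, and TIR1 the lowest, at 16.9 to 23.6, and the widest spread is that of CWP1 in NC.

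Among the abundant GPI proteins, CCW12 encodes a small glycoprotein needed for the stability of the wall in growing buds. It stood at 15561, 16189 and 17986 RPKM in NC and at 13713, 12895 and 13879 in OPT. Every OPT library was below every NC library, yet the transcript held rank 3 of all features in all 6 libraries. The mean was 16578 ± 1259 in NC and 13495 ± 527 in OPT (SD, n = 3), a log2 difference of -0.29 with a standard error of 0.11 and an interval from -0.55 to -0.04 (limma adjusted p = 0.0965). With one prior variance for all features it was called (adjusted p = 0.044), whereas quantile normalization, which sets equal ranks to equal values, left a difference of 0.

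CWP2, a major wall mannoprotein, stood at 7932, 8034 and 9171 RPKM in NC and at 8505, 7787 and 7492 in OPT. The strains overlapped, and the log2 difference of -0.08 (standard error 0.11, adjusted p = 0.643) turned to 0.083 with quantile normalization. SED1, which encodes a stress-induced structural protein of the wall, stood at 5455, 5656 and 4960 RPKM in NC and at 4976, 5967 and 6035 in OPT. Again the strains overlapped. Its log2 difference was 0.08 (standard error 0.11, adjusted p = 0.679), with an interval from -0.20 to 0.35, and it turned to -0.029 with quantile normalization.

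CCW14, a GPI protein of the inner part of the wall, was the one member whose OPT libraries all lay above the NC ones. It stood at 885, 936 and 858 RPKM in NC and at 981, 1008 and 1220 in OPT. The log2 difference was 0.25 with a standard error of 0.10 and an interval from 0.01 to 0.50 (adjusted p = 0.136). It was 0.16 without OPT replicate 3, the highest library.

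CWP1 encodes a mannoprotein of the birth scar and was the most variable of the 10. It stood at 168, 231 and 397 RPKM in NC and at 176, 167 and 177 in OPT. The OPT libraries lay close together around the level of NC replicate 1, the lowest of NC. The log2 difference of -0.52 (standard error 0.28, interval -1.19 to 0.15, adjusted p = 0.24) was -0.19 without NC replicate 3 and -0.80 without NC replicate 1. In NC replicate 3, KAR2, the ER Hsp70 chaperone, was also highest, at 1002 RPKM, while the rest of NC held 567 and 560 and the OPT libraries 255 to 302. The part of that library's other differences in the CWP1 value was not tested.

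TIR1, of a family of serine-rich wall proteins known for induction by cold and lack of oxygen, was the least abundant member. It stood at 20.7, 23.6 and 19.8 RPKM in NC and at 18.3, 16.9 and 18.1 in OPT. The strains did not overlap, but only narrowly. The log2 difference was -0.25 with a standard error of 0.08 and an interval from -0.45 to -0.05 (adjusted p = 0.0799). It was called without NC replicate 3 (adjusted p = 0.0279), with quantile normalization (0.0446) and with libraries weighted by their fit (0.0206).

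The 4 PIR genes did not share one direction. HSP150, also known as PIR2, encodes a secreted and wall-bound glycoprotein induced by heat. It was the most abundant of them, at 1681, 1829 and 1446 RPKM in NC and 1730, 1993 and 1928 in OPT. The strains overlapped, and the log2 difference was 0.19 (standard error 0.11, interval -0.08 to 0.46, adjusted p = 0.276). It was 0.10 with NC replicate 3 left out and with quantile normalization, and 0.12 with libraries weighted by their scatter (limma arrayWeights). CIS3, or PIR4, stood at 773, 743 and 831 RPKM in NC and at 656, 668 and 655 in OPT. Here the strains were apart, with CIS3 lower in each OPT library. Its log2 difference of -0.24 (standard error 0.07, interval -0.42 to -0.07) had the smallest adjusted p of the 10, 0.061. CIS3 was called with a common prior variance (0.0479), without the filter on low values (0.0371) and with quantile normalization (0.0205).

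PIR1, which is required for wall stability, stood at 657, 692 and 557 RPKM in NC and at 569, 594 and 628 in OPT. The OPT libraries lay inside the NC range, and the log2 difference was -0.09 (standard error 0.10, adjusted p = 0.591). PIR3 stood at 252, 362 and 208 RPKM in NC and at 354, 395 and 394 in OPT. NC replicate 2 reached the level of OPT, and the other NC libraries were lower. The log2 difference of 0.51 (standard error 0.19, interval 0.05 to 0.97, adjusted p = 0.113) rose to 0.73 without NC replicate 2, where it was called (adjusted p = 0.0159), and was 0.33 without NC replicate 3, where it was not called. PIR genes share repeats, and the sources used here do not say how reads that map to more than 1 place were treated, so the split of reads among them is uncertain.

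The 10 members include 3 pairs that lie side by side in the genome (RefSeq annotation of build R64, spans of the annotated genes). PIR1 (chromosome XI, 141794 to 142819, reverse strand by its systematic name) and PIR3 (144401 to 145378, forward) point away from each other across 1581 bp. HSP150 (chromosome X, 120449 to 121690, forward) and CIS3 (122265 to 122948, reverse) point towards each other across 574 bp. CWP2 (chromosome XI, 259253 to 259531) and CWP1 (261132 to 261851) follow each other on the forward strand across 1600 bp. No member overlaps another RefSeq gene, although YKL096C-B lies 30 bp from CWP2.

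Ratios of such neighbours inside a library do not change with its scaling. PIR1 stood at 2.60, 1.91 and 2.68 times PIR3 in NC and at 1.61, 1.50 and 1.59 times in OPT, and the strains did not overlap. HSP150 stood at 2.17, 2.46 and 1.74 times CIS3 in NC and at 2.64, 2.98 and 2.94 times in OPT, again without overlap. CWP2 stood at 47.2, 34.8 and 23.1 times CWP1 in NC and at 48.3, 46.7 and 42.4 times in OPT, with overlap. Of single features, 40.7% were apart between the strains, and the share over other gene ratios was not computed. How reads were split among PIR genes, which share repeats, is uncertain, and this bears on their ratios. The log2 ratio, OPT minus NC, shifted by -0.60 for PIR1 over PIR3, by 0.44 for HSP150 over CIS3 and by 0.44 for CWP2 over CWP1. Two-sided exact permutation tests over the 6 libraries gave p = 0.1, 0.1 and 0.3, with 0.1 as the lowest possible p at 3 libraries a strain, and 0.15, 0.15 and 0.3 when adjusted over the 3 pairs, which were chosen after the members' values were seen. Without NC replicate 3 the shifts were -0.51, 0.30 and 0.17.

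**Figure D3:**
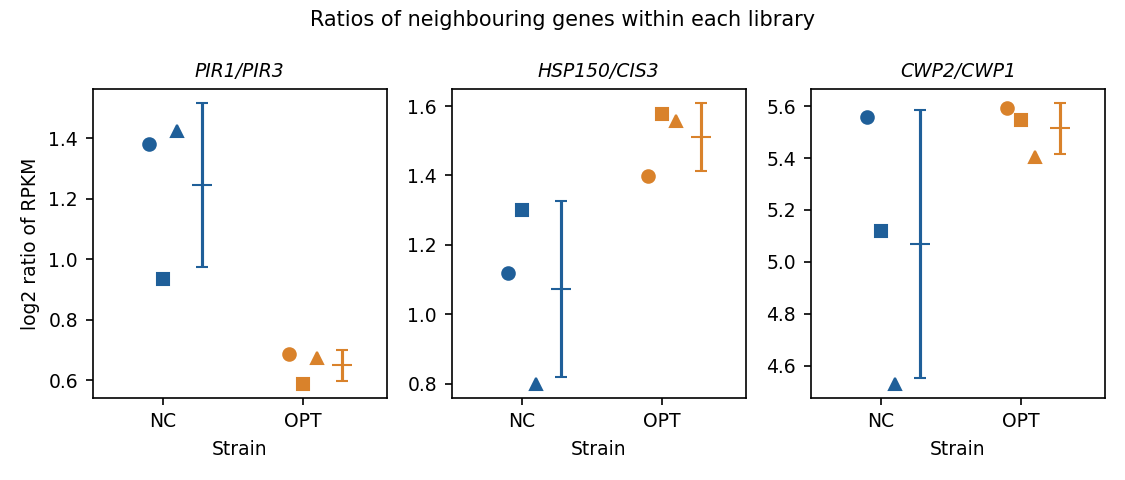
Log2 ratio of RPKM of adjacent genes inside each library, with circles, squares and triangles for replicates 1, 2 and 3 and bars for the mean and SD of each strain (n = 3). Each panel has its own scale. The strains are apart for PIR1/PIR3 and HSP150/CIS3 and overlap for CWP2/CWP1.

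The NC libraries varied more than the OPT ones in 8 of the 10 genes, SED1 and CCW14 being the exceptions. Across all features, Pearson r of log2 values between libraries was 0.986 to 0.994 within NC and 0.994 to 0.997 within OPT. The share of all features with more variation in NC was not computed, so the larger spread is not shown to be particular to these genes. The coefficient of variation between replicates was 4.44 to 44.5% in NC, with a median of 8.80%, and 1.13 to 12.2% in OPT, with a median of 5.58%. NC replicate 3 held the highest NC value for 4 genes, CWP1, CWP2, CCW12 and CIS3, and the lowest for the other 6. Against the mean of NC replicates 1 and 2 it lay 1.01 higher for CWP1 on the log2 scale and 0.18 higher for CCW12, and at -0.54 for PIR3 and -0.28 for HSP150 and for PIR1.

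**Figure D4:**
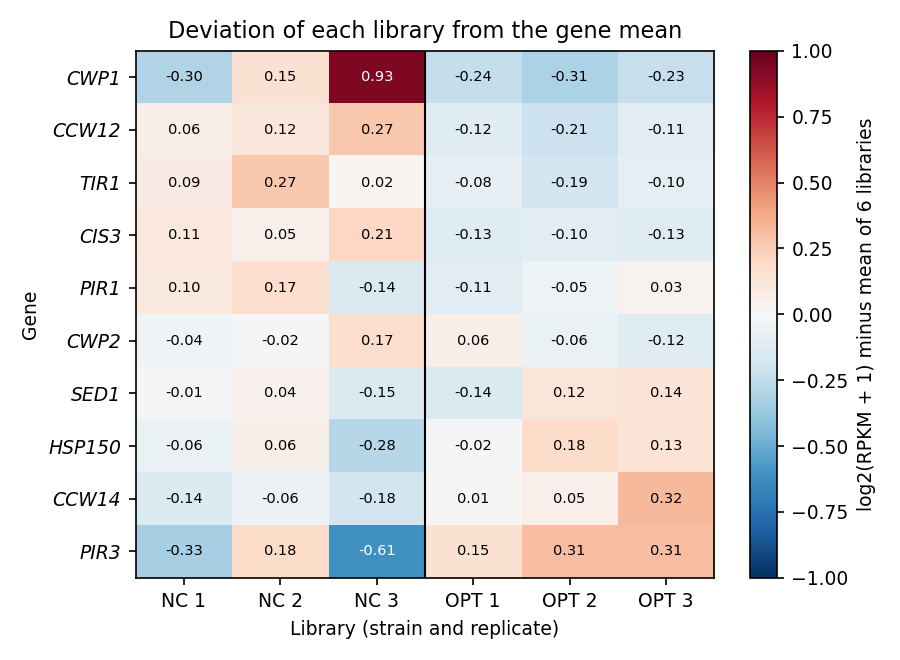
Log2(RPKM + 1) of each gene in each library minus the gene's mean over the 6 libraries, with genes ordered by the difference between strains. NC replicate 3 holds both extremes, 0.93 for CWP1 and -0.61 for PIR3.

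By Pearson correlation of log2 values over the 6 libraries, the transcripts most like the mean of the 4 PIR genes were PET9, NDE1, GPX2 and VBA5 (r = 0.971 to 0.928), and those most like the mean of the 6 GPI genes were YPC1, COS1, GTT3 and PSD1 (r = 0.991 to 0.974). They were the top 4 for each mean among 1587 variable features of at least 20 RPKM. The genes behind each mean did not move alike. In NC replicate 3 the centred GPI mean was 0.18, with CWP1 at 0.93 and the other GPI genes at -0.18 to 0.27. The PIR mean there was -0.21, with PIR3 at -0.61 and the other PIR genes at -0.28 to 0.21. The profiles share the same 6 libraries and their deviations, so these values only describe likeness.

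Other wall protein genes did differ between the strains, in both directions. The gene lists used from here on were chosen with earlier results of these data known, so their shares of calls only describe them. In a list of 26 further GPI wall proteins, 2 rose and 5 fell in OPT, or 26.9% against the 19.1% of all features, with a median log2 difference of -0.25 against -0.06. SPI1, a GPI protein known from stationary cells, rose from 107, 170 and 214 RPKM in NC to 370, 328 and 351 in OPT (log2 difference 1.15, standard error 0.24, adjusted p = 0.0189), and HPF1, a large mannoprotein, rose by 0.83. UTR2, which links chitin to glucan, fell from 205, 179 and 175 to 96.9, 109 and 124 RPKM (-0.76, standard error 0.11, adjusted p = 0.00652), and TOS6 fell by 0.63. ECM33, the most abundant of the list, stood at 1142 ± 97.4 and 965 ± 54.2 RPKM (adjusted p = 0.121), and was called lower with NC replicate 3 left out (0.0447) and with quantile normalization (0.0228). SPI1 and HPF1 lost their calls without any 1 OPT library, with adjusted p up to 0.0753 and 0.129, while their log2 differences there were 1.11 to 1.19 and 0.72 to 0.92. HPF1 also lost it without NC replicate 1 and without the filter on low values. With NC replicate 3 left out 8 of the list fell, and with OPT replicate 1 or 2 left out 3 did. Over all features, the 1145 calls became 1953 in the first of these fits, 483 and 361 in the other two, and 525 with OPT replicate 3 left out.

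Among the relatives of TIR1, TIR2 and TIR3 fell in OPT. TIR2 went from 38.6, 36.4 and 45.6 RPKM in NC to 22.7, 22.7 and 27.4 in OPT, a log2 difference of -0.70 (standard error 0.11, adjusted p = 0.00831). TIR3 fell by 0.50 (adjusted p = 0.0176) and AGA1, the anchor subunit of a mating agglutinin, by 0.41 (adjusted p = 0.0282). TIR3 and AGA1 were named after their values were seen, and both calls ended without OPT replicate 1 or 2, that of AGA1 also without OPT replicate 3 or NC replicate 1 and with equal library medians or quantile normalization, with adjusted p up to 0.0713 and 0.105. TIR4, likewise named afterwards, stood at a log2 difference of -0.32 and did not pass (adjusted p = 0.306). TIP1, DAN1 and DAN4 of the same list, also named afterwards, stood at -0.07, -0.42 and -0.14. None of them passed in the main fit (limma adjusted p = 0.866, 0.0883 and 0.384).

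Of 14 wall and secreted proteins without a GPI anchor, 2 rose and 4 fell, or 42.9% against the 19.1% of all features. The median log2 difference was -0.27 against -0.06. YGP1, a secreted glycoprotein known from nutrient-limited cells, rose from 271, 490 and 378 to 678, 712 and 828 RPKM (log2 difference 1.00, standard error 0.21, adjusted p = 0.0205), a call that ended without any 1 OPT library (adjusted p up to 0.0758), and NCA3 of the SUN family rose by 0.93. The feature YJL160C, which RefSeq names PIR5, is the other neighbour of HSP150, 1623 bp away. It fell from 26.6, 29.4 and 31.8 to 17.6, 17.0 and 16.1 RPKM (-0.75, standard error 0.08, adjusted p = 0.00286) and kept its call under all 15 alternatives. SCW10, a glucanase-like wall protein, fell by 0.74, SIM1 of the SUN family by 0.56 and TOS1, named after its values were seen, by 0.43. All 3 lost the call without OPT replicate 1 or 2, with adjusted p up to 0.106. SIM1 and TOS1 also lost it without NC replicate 1 and with equal library medians, SIM1 with quantile normalization and with no filter on low values too, and TOS1 without NC replicate 2. In this list 7 fell without NC replicate 3, 2 without NC replicate 1 or with equal library medians, and 1 without OPT replicate 1 or 2, and 1 rose without any 1 OPT library. Over all features, the 1145 calls became 1002 without NC replicate 1 and 962 with equal library medians. UTH1, the most abundant of these genes, stood at 3212 ± 172 and 2696 ± 113 RPKM and did not pass (adjusted p = 0.0863), but was called lower with NC replicate 3 left out (0.0424), with arrayWeights (0.0366) and with quantile normalization (0.0316).

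**Figure D5:**
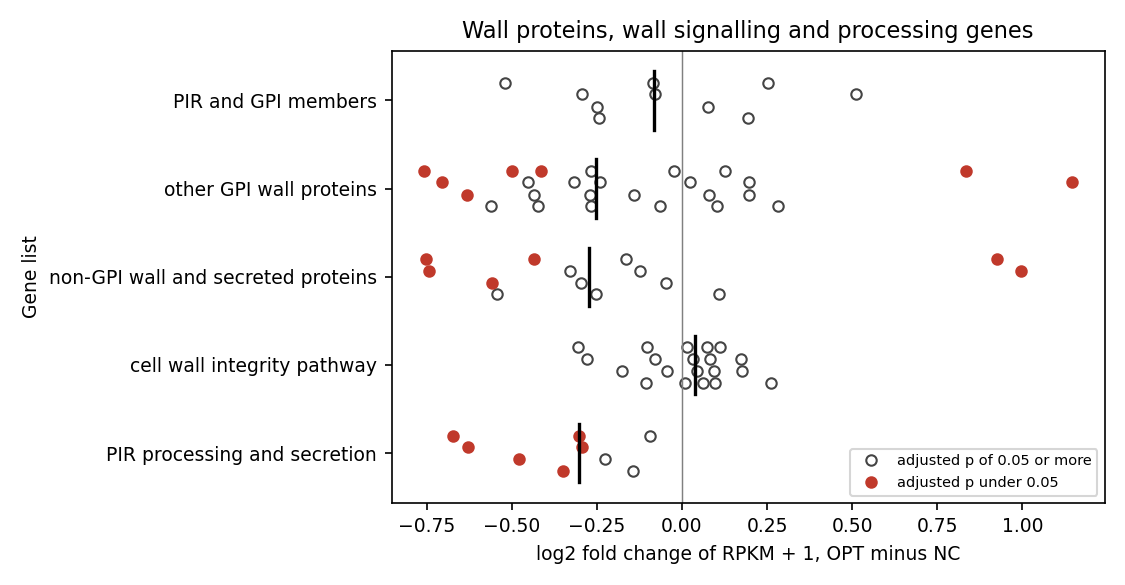
Log2 fold change of RPKM + 1, OPT minus NC, of every tested gene in the 10 members and in 4 lists (rows), with filled points for an adjusted p under 0.05 and vertical bars for the median of each row. No member and no gene of the integrity pathway is filled, and the filled genes of the processing list all lie below 0.

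None of the 20 genes of the cell wall integrity pathway passed (0 higher and 0 lower with limma, 4 at an unadjusted p under 0.05), against 19.1% of all features and 34.7% at that unadjusted p, and their log2 differences ran from -0.31 to 0.26 around a median of 0.04. SLG1, also called WSC1, the main wall sensor, stood at 121 ± 13.6 and 113 ± 14.1 RPKM, and RHO1, the GTPase of the pathway, at 516 ± 48.3 and 478 ± 14.2. Both named after their values were seen, PKC1 was called higher with equal library medians and with quantile normalization, and SAC7 was called lower with NC replicate 3 left out.

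Most of the listed genes for processing and mannosylation of such proteins, also chosen with earlier results known, fell in OPT. Of 9 tested, 6 fell and 0 rose, against 13.8% lower and 5.38% higher over all features, with a median of -0.30 against -0.06. PMT2, a subunit of the main O-mannosyltransferase of the ER, fell from 200, 197 and 256 to 121, 135 and 152 RPKM (log2 difference -0.67, standard error 0.13, adjusted p = 0.0159), its partner PMT1 fell by 0.63 and PMT4 by 0.48. MNN1 and MNN9, Golgi mannosyltransferases, fell by 0.35 and 0.30. Both calls were lost without any 1 library other than NC replicate 3, that of MNN9 also with quantile normalization, with adjusted p up to 0.0919 and 0.119. KEX2, which cuts the propeptides of PIR proteins and was named after its values were seen, fell from 50.1, 51.9 and 51.0 to 41.0, 40.5 and 42.7 RPKM (-0.29, standard error 0.05, adjusted p = 0.0138). The count of 6 became 0 without OPT replicate 1 or 2, although the log2 differences of these genes stayed below 0 there, in the fits with 483 and 361 calls over all features.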

How the data were processed

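The data are RPKM that the authors had normalized before they deposited them, 1 value for each gene in each mRNA library, per the file headers. Per the submitters' processing notes, Bowtie, TopHat and CASAVA 1.8.0 were among the tools and R64 was the genome build. The sources used here do not state the counting, strand use, handling of multiply mapping reads or normalization. A library's values add up to 999285 to 999421, so a rise of abundant rows lowers the others. Columns were matched to samples by library name, and replicates are biological ones by the design text. After 3 emptied lines and 1 repeated, shifted row were left out, 6347 features remained, of which 5992 matched RefSeq.

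Reads behind a value were estimated from the step that turns low values, times gene length, into whole reads within 0.15 (98.2 to 100% of 44 to 74 values of up to 20 reads). No count test was run. Log2 of RPKM plus a pseudocount of 1 was fitted by limma 3.58.1 under R 4.3.3 (eBayes with a trend, two-sided), OPT against NC, for every feature whose mean reached 1 RPKM, with Benjamini-Hochberg adjustment over all of them. Fold changes on this scale understate those of low genes. Both rows of cdt-1 were fitted and left out of the counts. The pipeline was tested on simulated data. Alternatives were other pseudocounts (0.1 and 10), no filter or one of 10 RPKM on the mean, quantile normalization, equal library medians, a common prior variance, arrayWeights and leaving out each library, and, added after seeing the data, protein-coding rows only.

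The members and lists were chosen with earlier results of these data known. Named genes were all members and, per list, up to 5 called genes by size of change plus the most abundant one, or the 2 most abundant where none was called. One list is not reported here. PIR5 and WSC1 were found under YJL160C and SLG1. Python 3.11.15, pandas 2.3.3 and matplotlib 3.10.9 were used.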

Additional observations from a re-analysis of the deposited data

How the results depend on the processing

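Of the members' 150 log2 differences under 15 alternatives, 140 kept direction and side of the threshold, 8 newly passed it and 2 turned, both with quantile normalization: CWP2 to 0.083 and SED1 to -0.029. SLG1 turned to 0.000172 there. Under 9 of the alternatives no member was called. The number lower was 2 with quantile normalization and with a common prior variance, and 1 without a filter and with arrayWeights. Without single libraries it was 0 to 1, and the number higher was 0 to 1. Over all features, the 1145 calls of the main fit became 1022 with quantile normalization and 1095 with a common prior variance. They became 1090 without a filter and 1688 with arrayWeights. Without NC replicate 2, where a member was called higher, they became 850. Without NC replicate 3, where a member was called lower, they became 1953. In the lists, no filter gave 1 higher further GPI protein. Quantile normalization gave 1 integrity gene higher, and equal medians gave 1 integrity gene higher and 2 proteins without a GPI anchor lower. Leaving out single libraries gave 0 to 2 higher and 3 to 8 lower further GPI proteins, 1 to 2 higher and 1 to 7 lower without an anchor, 0 to 1 lower integrity genes and 0 to 6 lower processing genes. The causes were not tested. Over protein-coding rows only, the members took 3.26% of RPKM in OPT (3.19% over all rows). No paired analysis was possible because the labels give no replicate numbers that the strains share. Depth limits TIR1 most, at an estimated 410 reads in its lowest library.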
